A study of Mus musculus with 7 samples.

Results

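Transcripts of 10 genes that mark macrophages were followed in the left ventricle of old male mice without and with endothelial nitric oxide synthase (eNOS, encoded by Nos3). The genes were Cd163, Fcgr3, Mrc1, Csf1r, C1qa, C1qb, C1qc, Cd68, Lyz2 and Cd14. They were chosen by name, with earlier results of these data known. The array's annotation pairs 14 of its 22626 probe sets with them, 3 each with C1qb and Csf1r and 1 each with the other 8 genes, and all 14 passed the filter on dim probe sets (above the 40th percentile of the own array on at least 3 arrays). The knockout mice were 3 males labelled eNOS (-/-) (M4, M10 and M140), and the wild-type mice were 4 males labelled (+/+) (M23, M125, M128 and M158). All 7 were 21 months old, and each mouse had its own single-colour Affymetrix MOE430A array. The labels report high mortality of eNOS (-/-) males by that age, so that the 3 were survivors, and the sources used here give neither the background strain nor the relation between the mice. A keyword of the series names exercise, and no label gives the exercise state of a mouse.

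Macrophages live in the healthy heart muscle, where they clear dying cells and debris, and many of them depend on signals through the CSF1 receptor for survival. Resident heart macrophages are known for scavenger and mannose receptors on their surface and for making C1q, the recognition molecule that starts the classical complement pathway. Several of these transcripts are shared with other cells: lysozyme and Cd14 with monocytes and neutrophils, Fcgr3 with natural killer cells and neutrophils, and Mrc1 with lymphatic endothelium. In RNA of whole tissue, fewer macrophages and less of a transcript per macrophage cannot be told apart.

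Values are the deposited probe set intensities in linear units, with a median of 670.6 to 698.6 per array, and differences are knockout minus wild type on the scale of log2(intensity + 16). Intensities of different probe sets are not compared as levels of their genes. They are used only to pick the brightest probe set of a gene and to sum marker lists array by array. Hybridization days, coded 1 to 4 from the earliest, were mixed with the groups. Knockout M140 shared day 1 with wild-type M128, wild-type M125 was alone on day 2, knockout M4 and M10 were on day 3 and wild-type M23 and M158 on day 4. Values of single arrays are given in the order M4, M10 and M140 for knockout mice and M23, M125, M128 and M158 for wild-type mice. Only 3 and 4 arrays were available, which limits precision, and p-values measure the spread between these mice and days together. The targeted gene did not check the labels: Nos3 read 1145, 1413 and 1135 in the knockout mice and 791, 1163, 872 and 1058 in the wild-type mice (log2 difference 0.35 ± 0.15 SE, adjusted p = 0.42 by limma). The sources used here do not say where its probe set lies relative to the disrupted stretch. The labels are used as they stand. The heart muscle markers Tnnt2, Myh6, Actc1 and Tnni3 were saturated on all 7 arrays, at the highest value of each, which shows their presence and allows no comparison of the groups. The scanner sheet of wild-type M23 carries a remark that 2 rounds of processing were joined.

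By limma, 0 of 13836 tested probe sets (0%) had an adjusted p under 0.05, and 1636 of them (11.8%) had an unadjusted p under 0.05. The 14 macrophage probe sets fell into different patterns over the arrays. Cd163, Fcgr3, Cd68 and Csf1r on its brightest probe set read higher in every knockout mouse than in every wild-type mouse, with differences of 1.35-fold to 1.45-fold. Such an arrangement was found for 4.97% of all tested probe sets, and 4 of the 14 had an unadjusted p under 0.05 in the higher direction, against 6.57% of all tested probe sets. In the lower direction 0 of the 14 had such a p, against 5.25%, and 0 lay below the wild-type arrays throughout, against 4.34%. A positive difference was found for 13 of the 14, against 49.5% of all. The genes were chosen with earlier results of these data known, and C1qb and Csf1r count several times. These shares are therefore a description and no test. C1qa, C1qc, Mrc1, Lyz2 and the brightest probe set of C1qb instead had their 2 highest arrays in knockout M140 and wild-type M128, both of day 1, and gave group differences smaller than or near their standard errors.

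**Figure D1:**
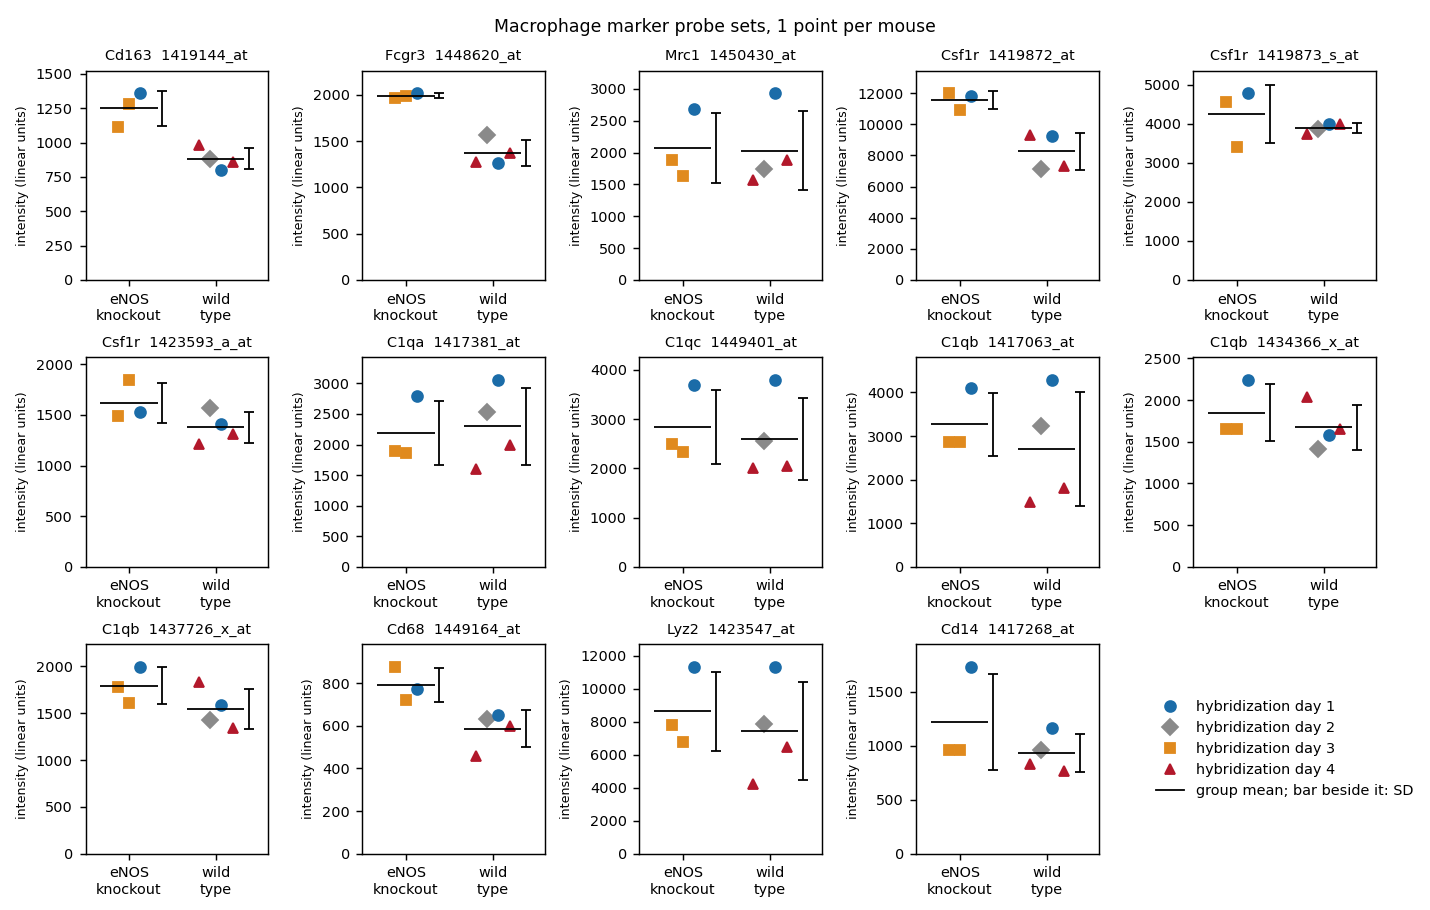
Intensity (linear units) of the 14 probe sets on each array, 3 eNOS knockout mice on the left and 4 wild-type mice on the right of each panel, with the group mean as a line, the SD as a bar beside it and the hybridization day as symbol and colour. Fcgr3 lies between 1971 and 2019 on the knockout arrays and between 1261 and 1568 on the wild-type arrays, while C1qb on 1417063_at is highest on the day 1 array of each group, at 4105 on knockout M140 and 4287 on wild-type M128.

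Among the surface receptors, Cd163 takes up complexes of haptoglobin and haemoglobin from blood. Its probe set 1419144_at read 1110, 1282 and 1360 in the knockout mice, and 985, 884, 803 and 860 in the wild-type mice. The highest wild-type array lay below the lowest knockout array. The means were 1251 ± 127.997 (SD, n = 3) in knockout and 883 ± 75.6 (SD, n = 4) in wild type. The log2 difference was 0.49 ± 0.10 (SE; adjusted p = 0.186 by limma), or 1.41-fold. Within day 1, knockout M140 exceeded wild-type M128 by 0.75.

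Fcgr3, a low-affinity receptor for the constant part of IgG antibodies, had the smallest p of the 14. Its probe set 1448620_at read 1971, 1982 and 2019 in the knockout mice, and 1279, 1568, 1261 and 1375 in the wild-type mice. The knockout arrays lay close together, with a mean of 1990 ± 25.2 (SD, n = 3) against 1371 ± 141 (SD, n = 4) in wild type. The log2 difference was 0.54 ± 0.11 (SE; adjusted p = 0.166 by limma), and 0.67 within day 1. The other tested Fc receptor genes did not share one pattern. Fcgr4, an activating IgG receptor of monocytes and macrophages, read 1053, 1387 and 1190 in the knockout mice and 782, 925, 917 and 818 in the wild-type mice, without overlap (log2 difference 0.48, adjusted p = 0.218). Fcgr2b, the inhibitory IgG receptor, had 4 tested probe sets with differences of -0.013 to 0.22, and on each of them M140 and M128 were the 2 highest arrays.

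Mrc1, the mannose receptor, showed no separation of the groups. Its probe set 1450430_at read 1882, 1638 and 2682 in the knockout mice, and 1565, 1745, 2934 and 1882 in the wild-type mice. The day 1 arrays were the highest of each group, and the log2 difference was 0.037 ± 0.25 (SE; adjusted p = 0.973 by limma).

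Csf1r, the receptor for the growth factors CSF1 and IL-34, was read by 3 probe sets that did not agree in size. The brightest, 1419872_at, read 12002, 10895 and 11782 in the knockout mice, and 9336, 7150, 9261 and 7308 in the wild-type mice. These groups did not overlap, and the log2 difference was 0.49 ± 0.13 (SE; adjusted p = 0.262 by limma). On 1419873_s_at the wild-type arrays stayed within 3731 to 3999 and knockout M10 lay below them at 3408, with 4566 on M4 and 4782 on M140 (log2 difference 0.11 ± 0.15, adjusted p = 0.84). On 1423593_a_at knockout M10 was the highest array at 1846, wild-type M125 at 1573 lay above knockout M4 and M140 at 1487 and 1529, and the difference was 0.23 ± 0.12 (adjusted p = 0.522). The knockout array that was highest on 1423593_a_at was therefore the lowest knockout array on the other 2 probe sets. Csf1, a ligand of this receptor, differed by 0.19 with overlapping groups. Of the list of CSF1 receptor ligands and related receptors, 5 of 7 genes were tested. Csf1r itself, on the brightest probe set given above, was the only one with an unadjusted p under 0.05, so that the list adds no further gene. Of all tested genes 6.77% had such a p in the higher direction. Csf2ra, a receptor chain for GM-CSF, followed with a difference of 0.17 (adjusted p = 0.52).

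The 3 chains of C1q are encoded by neighbouring genes on chromosome 4 in the order C1qb, C1qc and C1qa, with 0 other genes listed between them. C1qa (1417381_at) read 1900, 1869 and 2800 in the knockout mice, and 1606, 2533, 3057 and 1991 in the wild-type mice. The knockout arrays lay within the range of the wild-type arrays, and the log2 difference was -0.053 ± 0.24 (SE; adjusted p = 0.964 by limma). C1qc (1449401_at) read 2502, 2328 and 3692 in the knockout mice, and 2008, 2549, 3797 and 2043 in the wild-type mice, a difference of 0.15 ± 0.26 (adjusted p = 0.885). C1qb on 1417063_at read 2856 on both knockout M4 and M10 and 4105 on knockout M140, and 1479, 3220, 4287 and 1808 in the wild-type mice. Its wild-type arrays alone spanned 2.90-fold, and the difference was 0.38 ± 0.37 (adjusted p = 0.749).

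C1qb had 2 further probe sets of the x_at kind, which can cross-hybridize with related transcripts, and they followed a different order of arrays. On 1434366_x_at wild-type M23, the lowest array of 1417063_at, read 2039 and stood second behind knockout M140 at 2242, and wild-type M128, the highest array of 1417063_at, read 1578. On 1437726_x_at M23 read 1829 and M128 read 1588. The log2 differences of these 2 probe sets were 0.14 ± 0.16 and 0.22 ± 0.14 (SE; adjusted p = 0.805 and 0.595 by limma). Across all 14 probe sets, M140 and M128 were the 2 highest arrays for 6, against 4.35% of all tested probe sets, wild-type M23 was the lowest array for 7, against 15.6%, and the day 4 arrays M23 and M158 were the 2 lowest for 6, against 8.85%. The 6 that were highest on day 1 were C1qa, C1qc, Mrc1, Lyz2, Cd14 and C1qb on 1417063_at.

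**Figure D2:**
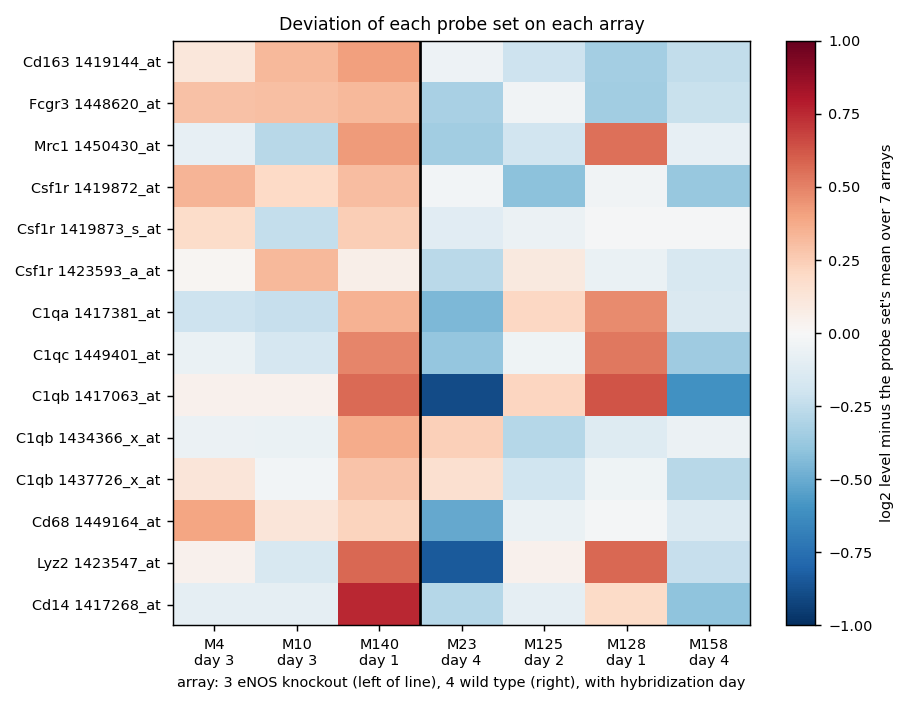
Deviation of each probe set on each array from its own mean over the 7 arrays (log2 units, colour), with 3 eNOS knockout arrays left of the line and 4 wild-type arrays right of it, labelled by hybridization day. Cd163, Fcgr3, Cd68 and Csf1r on 1419872_at are above their mean on each knockout array and below it on each wild-type array, whereas C1qa, C1qc, C1qb on 1417063_at, Mrc1 and Lyz2 are highest on the day 1 arrays M140 and M128.

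The start regions of C1qb and C1qc, neighbours whose brightest probe sets were both highest on M128 and lowest on M23, are shown beside those of Fcgr3 and Cd68, whose groups did not overlap. The sequences are from RefSeq (GRCm38.p6), which matched 7 of the 10 genes, cover 250 bases before to 50 after the listed start, and run 5′ to 3′ on the gene's strand. Capitals mark GAGGAA on either strand, the core of sites bound by the myeloid factor PU.1, and TGANTCA, the AP-1 site. The regions of C1qb, C1qc, Fcgr3 (the first of its listed starts) and Cd68 are, in that order, chr4:136886151-136886450 (minus strand), chr4:136892865-136893164 (minus strand), chr1:171059354-171059653 (minus strand) and chr11:69666121-69666420 (minus strand).
C1qb: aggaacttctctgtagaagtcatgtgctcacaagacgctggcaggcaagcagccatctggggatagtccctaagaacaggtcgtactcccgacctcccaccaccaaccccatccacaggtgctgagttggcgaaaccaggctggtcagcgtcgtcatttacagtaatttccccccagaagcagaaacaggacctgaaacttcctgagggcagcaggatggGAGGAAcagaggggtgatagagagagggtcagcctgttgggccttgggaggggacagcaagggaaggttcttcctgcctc
C1qc: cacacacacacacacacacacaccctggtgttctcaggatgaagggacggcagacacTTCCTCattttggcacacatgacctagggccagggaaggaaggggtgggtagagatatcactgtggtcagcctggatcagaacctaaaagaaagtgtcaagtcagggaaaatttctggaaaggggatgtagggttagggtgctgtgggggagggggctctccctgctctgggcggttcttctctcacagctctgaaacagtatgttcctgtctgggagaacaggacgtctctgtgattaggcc
Fcgr3: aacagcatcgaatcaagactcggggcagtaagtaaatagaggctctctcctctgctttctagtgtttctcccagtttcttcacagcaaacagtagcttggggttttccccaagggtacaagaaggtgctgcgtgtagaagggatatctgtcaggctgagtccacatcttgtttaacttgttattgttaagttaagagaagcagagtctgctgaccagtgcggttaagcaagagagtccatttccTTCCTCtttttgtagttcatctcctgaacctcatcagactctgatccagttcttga
Cd68: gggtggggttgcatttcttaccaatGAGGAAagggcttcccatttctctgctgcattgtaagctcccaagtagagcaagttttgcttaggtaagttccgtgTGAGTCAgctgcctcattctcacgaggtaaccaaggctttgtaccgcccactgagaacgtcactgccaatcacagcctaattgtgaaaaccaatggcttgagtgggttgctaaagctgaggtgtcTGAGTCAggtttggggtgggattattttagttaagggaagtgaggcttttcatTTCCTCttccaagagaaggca
GAGGAA occurred 1 time in the regions of C1qb, C1qc and Fcgr3 and 2 times in that of Cd68, and 28.3% of 32851 RefSeq start regions of this length hold it on either strand. TGANTCA occurred 2 times in the region of Cd68 and was not found in these windows of C1qb, C1qc and Fcgr3, against 7.81% of all start regions. The windows of Cd163 and Lyz2 held neither motif, and that of Mrc1 held GAGGAA 3 times. A match is a run of letters and not a measured binding site.

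Of the lysosomal and secreted products, Cd68, a glycoprotein of late endosomes and lysosomes, read 877, 721 and 774 in the knockout mice, and 460, 631, 652 and 599 in the wild-type mice. On its probe set 1449164_at the groups did not overlap. The means were 790 ± 79.3 (SD, n = 3) in knockout and 585 ± 86.5 (SD, n = 4) in wild type, and the log2 difference was 0.43 ± 0.13 (SE; adjusted p = 0.294 by limma), with 0.24 within day 1. Cd68 was dim, and on wild-type M23 it lay at the 35.1 percentile of that array.

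Lyz2, the lysozyme of macrophages and granulocytes that digests bacterial walls, read 7794, 6784 and 11323 in the knockout mice and 4228, 7829, 11284 and 6455 in the wild-type mice on 1423547_at. Knockout M140 and wild-type M128 had nearly the same level, with a log2 difference between them of 0.0049, and the difference of the groups was 0.27 ± 0.33 (SE; adjusted p = 0.818 by limma). The related lysozyme gene Lyz1 had 2 tested probe sets, both of the x_at kind. Their differences were 0.47 and 0.25, and M140 and M128 were the 2 highest arrays on each.

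Cd14, which presents bacterial lipopolysaccharide to Toll-like receptor 4, had exactly the same deposited value, 960 when rounded, on knockout M4 and M10 and on wild-type M125. It read 1733 on knockout M140, and 836, 1165 and 769 on wild-type M23, M128 and M158. Its log2 difference of 0.34 ± 0.23 (SE; adjusted p = 0.634 by limma) came down to 0.059 without knockout M140. Tlr4 itself was not tested. Of the list of Cd14 and Toll-like receptor 4 signalling genes, 6 of 11 were tested and 1, the lipopolysaccharide-binding protein gene Lbp, had an unadjusted p under 0.05 (log2 difference 0.62 ± 0.18, adjusted p = 0.286, with overlapping groups). An unadjusted p under 0.05 in the higher direction was found for 6.77% of all tested genes. Tirap, an adaptor of Toll-like receptor 4, differed by 0.19 (adjusted p = 0.467).

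The 5' control probe set of Gapdh, which reads the far end of a transcript that is copied from its 3' end and is therefore used as a sign of RNA quality, differed widely between arrays. It read 23889, 23125 and 34559 in the knockout mice, and 4456, 34290, 30924 and 15460 in the wild-type mice. The 2 lowest arrays were the wild-type arrays of day 4, so that a low control signal and that day cannot be told apart. The lowest, M23, is also the array with the remark that 2 rounds of processing were joined, and the part of that was not tested. The mean on the log2 scale was 14.7 ± 0.32 (SD, n = 3) in knockout and 14.01 ± 1.35 (SD, n = 4) in wild type, and the difference of 0.70 was smaller than the wild-type spread (exact two-sided permutation p = 0.514 over 35 splits). The 3' control probe set was at or near the upper limit of the scale on every array.

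C1qb on 1417063_at and Lyz2 went with this control signal over the 7 arrays. For C1qb, Pearson's r was 0.897 (exact permutation p = 0.00198, adjusted over the 14 probe sets p = 0.0236) and Spearman's rho 0.883 (exact permutation p = 0.0135, adjusted p = 0.0630). For Lyz2, r was 0.886 (exact permutation p = 0.00337, adjusted p = 0.0236) and rho 0.964 (exact permutation p = 0.00278, adjusted p = 0.0389). Without M23 and M158, the arrays farthest from the median control signal, r was 0.736 for C1qb (exact permutation p = 0.183) and 0.671 for Lyz2 (exact permutation p = 0.175) over 5 arrays. With 5 arrays the smallest exact permutation p is 0.00833, from which a single probe set among 14 cannot pass the adjusted threshold, so that the adjusted call could not be repeated without M23 and M158. Over all 7 arrays 2 of the 14 probe sets passed it. C1qa had an r of 0.769 (exact permutation p = 0.0198, adjusted p = 0.0926) and a rho of 0.786 (exact permutation p = 0.0480), and C1qc an r of 0.684 (exact permutation p = 0.0647, adjusted p = 0.181) and a rho of 0.893 (exact permutation p = 0.0123). An r above 0.75 was found for 4 of the 14 probe sets, those of C1qa, Lyz2, Cd68 and C1qb on 1417063_at, and for 4.96% of all tested probe sets. The other C1qb probe sets did not go with the control signal. Pearson's r over the 7 arrays was -0.375 on 1434366_x_at and -0.138 on 1437726_x_at (exact permutation, adjusted p = 0.533 and 0.838).

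Cd163, Csf1r on 1419872_at, Fcgr3 and Cd68, whose groups did not overlap, had an r of 0.118 to 0.765 with the control signal. Pearson's r was 0.137 for Cd163 (exact permutation p = 0.824, adjusted p = 0.838), and Spearman's rho 0.214 (exact permutation p = 0.662). For Csf1r on 1419872_at r was 0.118 (exact permutation p = 0.838) and rho 0.0714 (exact permutation p = 0.906). The other Csf1r probe sets, whose groups overlapped, had an r of 0.365 on 1419873_s_at and 0.661 on 1423593_a_at (exact permutation p = 0.419 and 0.127). For Fcgr3 r was 0.490 (exact permutation p = 0.278) and rho 0.429 (exact permutation p = 0.354). Cd68 had an r of 0.765 (exact permutation p = 0.0603, adjusted p = 0.181) and a rho of 0.571 (exact permutation p = 0.200), and without M23 and M158 its r was -0.523. Each hybridization day held at most 2 arrays, so that no r within a day could be had. In the day 4 pair, where the control signal of M158 exceeded that of M23 by 1.79 on the log2 scale, M158 read higher than M23 for 9 of the 14 probe sets and lower for 5. In the day 1 pair, where M140 exceeded M128 by 0.16 in control signal, 10 were higher and 4 lower, and in the day 3 pair, where M4 exceeded M10 by 0.047, 9 were higher, 2 equal and 3 lower. Each count rests on a single pair of arrays. The share over all tested probe sets was not counted, so that a trait of these probe sets and a general offset between the arrays cannot be told apart. Within day 4, Lyz2 and Cd68 were higher on M158 by 0.61 and 0.37, and C1qb on 1417063_at by 0.29. Cd163 differed by -0.19 and Csf1r on 1419872_at by -0.35.

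**Figure D3:**
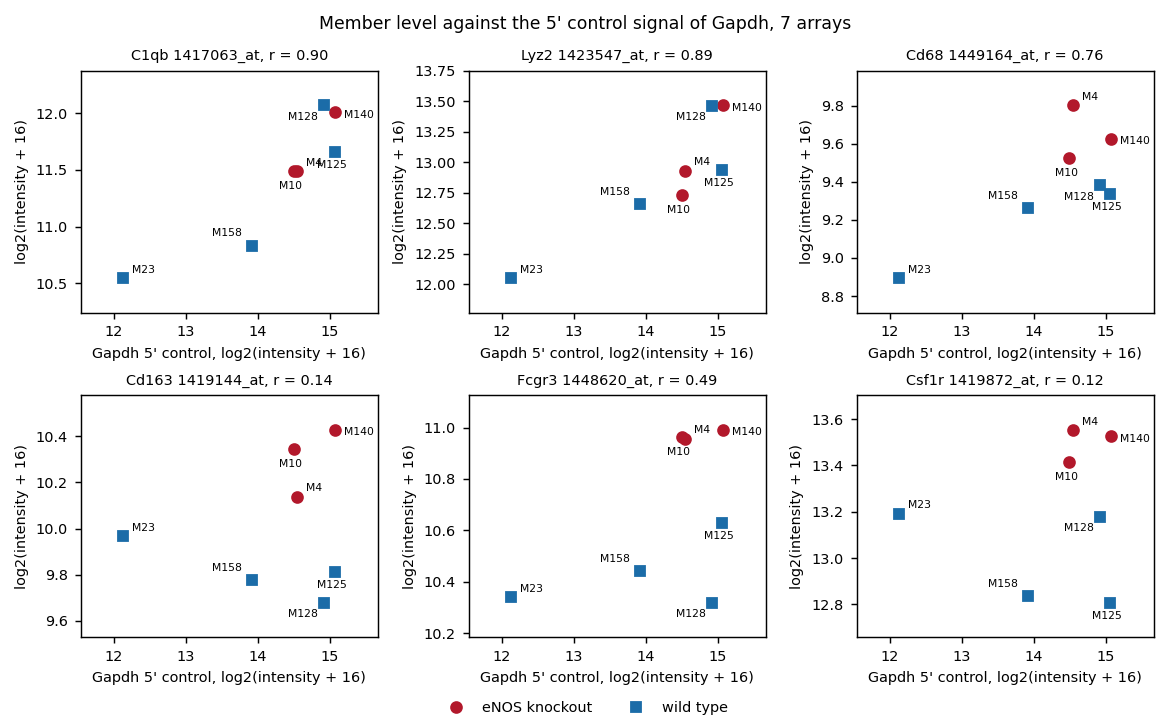
Level of 6 probe sets against the 5' control signal of Gapdh on the 7 arrays, both as log2(intensity + 16), with eNOS knockout arrays as circles and wild-type arrays as squares and Pearson's r in each title. C1qb on 1417063_at and Lyz2 are lowest on wild-type M23, which has the lowest control signal. For Cd163, Fcgr3 and Csf1r on 1419872_at the knockout arrays lie above the wild-type arrays.

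With the control signal as a covariate in the limma fit, Cd163, Fcgr3 and Csf1r on 1419872_at had log2 differences of 0.54 ± 0.11, 0.50 ± 0.11 and 0.54 ± 0.14 (SE; adjusted p = 0.137, 0.155 and 0.192). Cd68 had a difference of 0.32 ± 0.095 (adjusted p = 0.225) in that fit and 0.29 ± 0.10 without M23 and M158. C1qb on 1417063_at differed by 0.048 ± 0.22 and Lyz2 by -0.030 ± 0.20 with the covariate. Without M23 and M158, C1qb, Lyz2, C1qc and Mrc1 differed by -0.20, -0.16, -0.16 and -0.16 (adjusted p = 0.736, 0.836, 0.834 and 0.849), and C1qa by -0.37 (adjusted p = 0.524). Within day 1, which held 1 array per group, the differences of Cd163, Fcgr3, Csf1r on 1419872_at and Cd68 were 0.75, 0.67, 0.35 and 0.24. Every knockout array lay above every wild-type array for these probe sets, so that their positive sign was fixed for any choice of arrays. The differences of C1qa, C1qb on 1417063_at, C1qc and Mrc1 within day 1 were -0.13, -0.063, -0.040 and -0.13. With limma array weights, 619 probe sets passed an adjusted p of 0.05 (4.47%), among them Fcgr3, Csf1r on 1419872_at and Cd68 (adjusted p = 0.0281, 0.0371 and 0.0404), and Cd163 had an adjusted p of 0.0533. These weights ran from 0.373 for wild-type M128 to 3.81 for knockout M4.

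**Figure D4:**
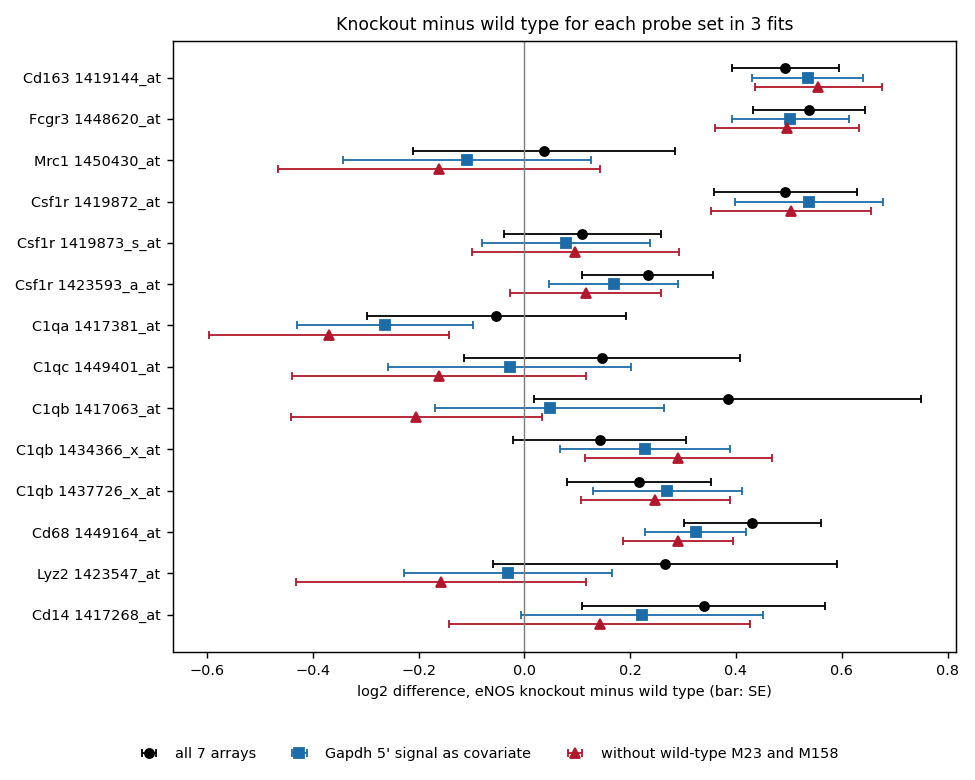
Log2 difference, eNOS knockout minus wild type, with its SE for each probe set in 3 fits: all 7 arrays, the 5' Gapdh control signal as a covariate, and without wild-type M23 and M158. Cd163, Fcgr3 and Csf1r on 1419872_at stay between 0.49 and 0.56 in the 3 fits, while C1qb on 1417063_at is at 0.38, 0.048 and -0.20.

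Genes were ranked by how closely they followed the mean log2 level of C1qa, C1qb and C1qc over the 7 arrays, with Pearson's r as a description only. Among 8869 genes, each read by its brightest tested probe set, Lyz2 ranked 5 (r = 0.965), Mrc1 104 (r = 0.861) and Cd14 188 (r = 0.822). Cd68 had an r of 0.534, Csf1r of 0.235, Fcgr3 of 0.227 and Cd163 of 0.0725. Outside the 10 genes, the 5 closest were Srsf11, Pbrm1, Txnrd3, Ankra2 and Reln, with r of 0.981, 0.968, 0.961, 0.960 and 0.954. Each of these 5 read highest on M140 and M128 and lowest on M23, as for Srsf11 with 1988 on knockout M140 and 2063 on wild-type M128 against 1483 on wild-type M23.

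Further macrophage markers were examined as lists, for which all 8869 tested genes gave a median log2 difference of -0.0027, and an unadjusted p under 0.05 for 6.77% in the higher and 5.4% in the lower direction. Of these genes 469 had every knockout array above every wild-type array, and 434 had every knockout array below. Of 16 general macrophage markers 11 were tested, with a median of 0.10, and 2 had such a p, both higher. Mpeg1, a pore-forming protein of phagocytes, differed by 0.49 ± 0.13 (SE; adjusted p = 0.259) without overlap of the groups, and the lysosomal protease gene Ctss by 0.61 ± 0.19 (adjusted p = 0.299) with overlap. Adgre1, which encodes the macrophage antigen F4/80, read 2288, 2254 and 2713 in the knockout mice and 2008, 2380, 2453 and 2151 in the wild-type mice, with overlapping groups. Of 12 other markers of the resident type 10 were tested, with a median of 0.093, and 2 had such a p, both higher. Stab1, a scavenger receptor, differed by 0.35 ± 0.098 (adjusted p = 0.266) and Vsig4, a complement receptor of tissue macrophages, by 0.57 ± 0.18 (adjusted p = 0.314). Folr2 and Lyve1, which mark resident heart macrophages, differed by -0.23 and 0.069. For Folr2 no knockout array exceeded a wild-type array, with knockout M4 and wild-type M23 and M125 at the same value of 1277, and for Lyve1 the groups overlapped. Of 12 monocyte and recruited macrophage markers 5 were tested, and Fcgr4 alone had an unadjusted p under 0.05, with Nr4a1 next at 0.47 (adjusted p = 0.569). Ccr2, the receptor that draws monocytes into tissue, read 591, 594 and 549 in the knockout mice and 505, 345, 764 and 470 in the wild-type mice.

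Markers of other cells, only some of which share these transcripts, were measured on the same arrays. Of 7 tested neutrophil markers 0 had an unadjusted p under 0.05. S100a8 and S100a9, calcium-binding proteins of neutrophils, read 2906 and 6470 on knockout M10, the highest of the 7 arrays for both. The intensities of all 7 tested neutrophil markers summed to 6433 to 15268 on the knockout arrays and 5431 to 10834 on the wild-type arrays. In such sums the brightest probe sets weigh most. Of 3 tested lymphatic endothelium markers 2 were higher at that p without overlap, Flt4 by 0.38 and Pdpn by 0.38 (adjusted p = 0.321 and 0.378), and the summed list ran from 4789 to 5537 in knockout and from 3790 to 5158 in wild type. Both tested red blood cell markers, Alas2 and Hbb-b2, were higher without overlap, by 1.33 and 0.41, with sums of 4686 to 9480 in knockout and 3371 to 4188 in wild type. The part of these cells in the differences of Cd163, Fcgr3, Cd68 and Csf1r was not tested. Of the MHC class II list, whose products display antigen on macrophages, dendritic cells and B cells, 1 of 5 tested genes had an unadjusted p under 0.05: H2-Aa, lower by the fit at -0.55 (adjusted p = 0.389), read 9095, 7121 and 7372 in the knockout mice and 12389, 8249, 15931 and 10589 in the wild-type mice. H2-Ab1 of the same list was at -0.24. Of the T cell list 1 of 4 tested genes had an unadjusted p under 0.05, Cd8a at -0.24, and its next gene, Cd3e, was at -0.13. Of the B cell, mast cell, dendritic cell, fibroblast and blood vessel endothelium lists, 0 of 2, 0 of 5, 0 of 3, 0 of 7 and 0 of 6 tested genes did, and the 2 genes of smallest p in each were Ighm (0.31) and Blk (0.077), Tpsb2 (-0.11) and Ms4a2 (0.077), Cd209a (0.062) and Itgax (-0.048), Col1a1 (0.43) and Pdgfra (0.13), and Tek (0.26) and Pecam1 (0.32). Atrial muscle was uneven between arrays, with the atrial light chain gene Myl7 at 17557 in knockout M10, 16097 in wild-type M125 and at 356 to 2926 on the other 5. Of the 4 atrial markers, Myl4 differed by -0.54. Nppa, the atrial natriuretic peptide gene, read 44868, 37741 and 45540 in the knockout mice and 6717, 32820, 12669 and 7993 in the wild-type mice, without overlap. It was saturated on knockout M4 and M140, so that these levels and the log2 difference of 1.80 (adjusted p = 0.259 by limma) are only lower bounds. Without M10 and M125, Cd163, Fcgr3, Csf1r on 1419872_at and Cd68 differed by 0.47, 0.61, 0.47 and 0.53. The positive sign of these differences was fixed, since the groups did not overlap on the full set of arrays.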

How the data were processed

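Total RNA of left ventricles was measured on MOE430A arrays, per the labels and the experiment sheets. The deposited table holds intensity values on a linear scale, and the sources used here do not give software, background correction or scaling. Some probe sets have exactly equal values on different arrays: Cd14 on 3, and Mrc1, C1qb 1417063_at, C1qb 1434366_x_at and Csf1r 1419873_s_at on 2 each. How these equal values arose is not known, and the fits treat them as separate readings. Experiment sheets deposited by the authors hold other, text information, of which only the hybridization day entered a fit. The remark on the scanner sheet of wild-type M23 was reported and entered no fit. Of 22626 probe sets that are not controls, a platform annotation named exactly 1 gene for 20380; symbols were updated through gene numbers with the GRCm38.p6 gene table. A probe set was tested if above the 40th percentile of its array on at least 3 arrays (13836). Groups were compared by limma 3.58.1 (R 4.3.3; lmFit and eBayes with trend, no covariate, two-sided, p adjusted by Benjamini-Hochberg over every tested probe set). The fit was tested on simulated data. The members and lists were chosen with earlier results of these data known. Named were all members, Nos3, the 2 genes of smallest p of each list and the 5 genes most like C1q; Adgre1, Folr2, Lyve1, Ccr2, Csf1, Fcgr2b, Lyz1, Tlr4, Myl7, Tnnt2, Myh6, Actc1 and Tnni3, and further genes of 3 lists, were named outside that rule. Alternatives were the offset, quantile normalization, normexp, the filter, trend, array weights, day as a block, Gapdh or Myl7 as a covariate and left-out arrays.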

Additional observations from a re-analysis of the deposited data

How the results depend on the processing

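Cd163, Fcgr3, Cd68, Cd14, all Csf1r probe sets and C1qb 1437726_x_at kept a positive difference under every alternative run, and 3 of them, Fcgr3, Csf1r 1419872_at and Cd68, passed the threshold with array weights (differences 0.52, 0.58 and 0.54). For Cd163, Fcgr3, Cd68 and Csf1r 1419872_at the groups did not overlap, which fixes the sign when arrays are left out. The 60th percentile filter left out Cd68. Probe sets passing over the whole array numbered 0 in the comparison as reported, 1 with the 60th percentile filter, with day as a fixed block or without M23 and M158, 2 without M10 and M125 and 619 with array weights, which called 3 member probe sets; leaving out each array gave 0 to 79 (79 without knockout M10, 27 without knockout M140). At an unadjusted p under 0.05 there were 3258 with array weights and 796 (without knockout M4) to 1633 when single arrays were left out, and 4 to 5 member probe sets. With day as a fixed block, the difference rests on knockout M140 against wild-type M128 alone. It was 0.75 for Cd163, 0.67 for Fcgr3 and 0.57 for Cd14. For Csf1r 1419872_at and Cd68 it was 0.35 and 0.24, smaller than the 0.49 and 0.43 of the comparison as reported. Differences changed sign with day as a fixed block, which leaves only M140 against M128 (C1qb 1417063_at -0.063, C1qc -0.040, Mrc1 -0.13), with the ratio of 5' to 3' Gapdh signal as a covariate (Lyz2 -0.028, C1qc -0.025, Mrc1 -0.11), with the 5' signal (Lyz2 -0.030, C1qc -0.028, Mrc1 -0.11), without M23 and M158 (C1qb 1417063_at -0.20, Lyz2 -0.16, C1qc -0.16, Mrc1 -0.16) and without M10 and M125 (C1qa 0.11). Leaving out single arrays gave -0.24 to 0.098 for C1qa, -0.0031 to 0.24 for C1qb 1434366_x_at, -0.056 to 0.34 for C1qc and -0.17 to 0.23 for Mrc1. The cause was not tested. Without the 2 arrays farthest from the median Gapdh signal, 0 probe sets had a relation to it that passed, which no single one could with 5 arrays (smallest exact p 0.00833), and r was -0.316 for Cd163, -0.519 and -0.471 for Csf1r 1419872_at and 1423593_a_at, 0.184 for C1qb 1434366_x_at, -0.411 for Fcgr3 and -0.523 for Cd68. The Gapdh difference was 0.073 (without wild-type M23) to 1.05 with single arrays left out. No paired analysis was possible because the 2 groups have no mouse number in common. The background correction behind the values is unknown, and its effect on dim probe sets such as Cd68 was not tested.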

Other observations

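Complement and lysosomal genes beyond the macrophage markers were also measured. Of 16 complement genes other than C1q, 9 were tested, with a median log2 difference of 0.13. Of these 3 had an unadjusted p under 0.05, all higher, against 6.77% of all 8869 tested genes in that direction. Every knockout array lay above every wild-type array for 469 of the 8869. C1ra and C1s1, the proteases that join C1q in the first complement complex, differed by 0.46 ± 0.14 and 0.33 ± 0.12 (SE; adjusted p = 0.296 and 0.374 by limma), each without overlap of the groups, and Serping1, the inhibitor of these proteases, by 0.54 with overlap. In the same knockout arrays the 3 C1q genes overlapped with wild type. Of 16 endolysosomal genes 13 were tested, with a median of 0.16, and 3 had an unadjusted p under 0.05, all higher. The cathepsin gene Ctsl read 12435 ± 303 (SD, n = 3) in knockout and 6988 ± 1627 (SD, n = 4) in wild type, and Ctsz, read by an x_at probe set, 1999 ± 597 (SD, n = 3) in knockout and 1026 ± 205 (SD, n = 4) in wild type, with adjusted p of 0.192 and 0.246 by limma and no overlap for either. Ctsa differed by 0.55 with overlap.

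Of the haemoglobin scavenging and haem breakdown list, the pathway in which Cd163 acts, 6 of 9 genes were tested, with a median log2 difference of -0.20. An unadjusted p under 0.05 was found for 3, of which Lrp1, a haemopexin receptor, was higher, by 0.56. Over all tested genes 6.77% were higher and 5.4% lower at that p. Slc40a1, the iron exporter of macrophages, read 1661 ± 635 (SD, n = 3) in knockout and 3527 ± 1613 (SD, n = 4) in wild type, a log2 difference of -1.05 ± 0.37 (SE; adjusted p = 0.341 by limma). Blvrb, a biliverdin reductase, differed by -0.26 ± 0.089 (adjusted p = 0.341). For Slc40a1 and Blvrb every knockout array lay below every wild-type array, as for 434 of all 8869 tested genes. This fixes the sign of their differences within day 1, which were -2.49 and -0.31. Of the 6 cardiac muscle genes 4 were saturated on every array. Mybpc3 was at or near saturation on the knockout arrays and saturated on wild-type M125, so that no fold is given for these genes. Ttn differed by 0.16.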
